A study of Mus musculus with 9 samples.

Results

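A set of 9 genes for basement membrane and secreted endoderm proteins was followed through the differentiation of mouse embryonic stem cells (ESCs). They are *Col4a1*, *Col4a2*, *Lama1*, *Lamb1*, *Lamc1*, *Sparc*, *Srgn*, *Thbd* and *Plat*, and all 9 were found by symbol among the 15074 named genes of the expression table. RNA-seq had been made from 3 lines at days 0, 2 and 4, with 1 library for each of the 9 combinations. WT cells are J1 ESCs, 1KO cells are *Dnmt1*-/- ESCs derived from J1, and 1KO+1CI cells are 1KO cells that also carry a transgene for DNMT1 C1229S, which has no catalytic activity. The transgene is driven by the CAG promoter and linked through an IRES to zeocin resistance, and the RNA-seq columns point to 1 numbered clone. All 3 lines were kept in serum with LIF on mitomycin C-treated mouse embryonic fibroblasts at day 0. For differentiation, feeders were first depleted on gelatin, embryoid bodies were formed for 1 day without LIF, and the adherent cells were cultured for 3 days more. Whether feeders were also removed before the day 0 RNA was taken was not stated in the labels or the methods. The comparison asks whether loss of DNMT1, and its inactive form, altered the course of differentiation.

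Basement membranes are sheets of extracellular matrix laid down by epithelial, endothelial and fibroblast-like cells. Networks of laminin, a trimer of an alpha, a beta and a gamma chain, and of collagen IV form their scaffold. In the early mouse embryo the primitive endoderm (PrE) and its parietal derivative secrete large amounts of laminin-111, collagen IV and SPARC, and parietal endoderm is also known for thrombomodulin and tissue plasminogen activator. None of the 9 genes is restricted to endoderm. Fibroblasts make collagen IV, laminin and SPARC, endothelial cells make thrombomodulin and tissue plasminogen activator, and blood cells make serglycin.

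Values are FPKM, reads per kilobase of transcript scaled to library size, so levels can be compared between genes. Differences are in log2(FPKM + 1), and a gene was counted as past 2-fold when the difference between 2 libraries was over 1 on this scale. With 1 library a condition there is no replicate error, and no difference could be set against the spread between cultures. No significance test was run, and a fit of line and day over the 9 libraries could be made but was not made. Depth recovered from the FPKM values was 20100000 to 27960000 counted reads, if 1 step of the values is 1 read. Intervals are exact 95% binomial (Clopper-Pearson) intervals of the FPKM ratio on approximate reads and cover counting error only. *Dnmt1* was at 74.0, 80.4 and 48.5 FPKM at days 0, 2 and 4 for WT, at 13.7, 17.4 and 12.3 for 1KO and at 315, 129 and 158 for 1KO+1CI cells. All 8 pluripotency markers of the list used here were in the table, and 7 in WT and 6 in each mutant line were more than 2-fold lower at day 4 than at day 0. Of all genes, 4.32% (WT), 5.13% (1KO) and 5.59% (1KO+1CI) were lower by this measure. The WT exception was *Pou5f1*, at 632 FPKM at day 0 and 1008 at day 4. Both mutant lines had *Pou5f1* and *Nanog* as exceptions. *Nanog* went from 205 to 171 FPKM with 1KO, from 232 to 157 with 1KO+1CI and from 163 to 56.8 with WT cells.

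At day 4, 8 of the 9 genes were ordered WT, 1KO, 1KO+1CI from lowest to highest, an order held by 23.5% of all genes on that day. *Plat* was the exception. The same order was held by 5 of 9 at day 0 and 5 of 9 at day 2, against 19% and 25% of all genes. *Col4a1*, *Lama1*, *Srgn* and *Thbd* kept it at all 3 days, as did 2.86% of all genes, and 8 of 9 had more FPKM in 1KO+1CI than in WT cells at all 3 days, against 19% of all genes. Each count compares the same 3 libraries of a day, so the genes are not replicates of the line.

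**Figure D1:**
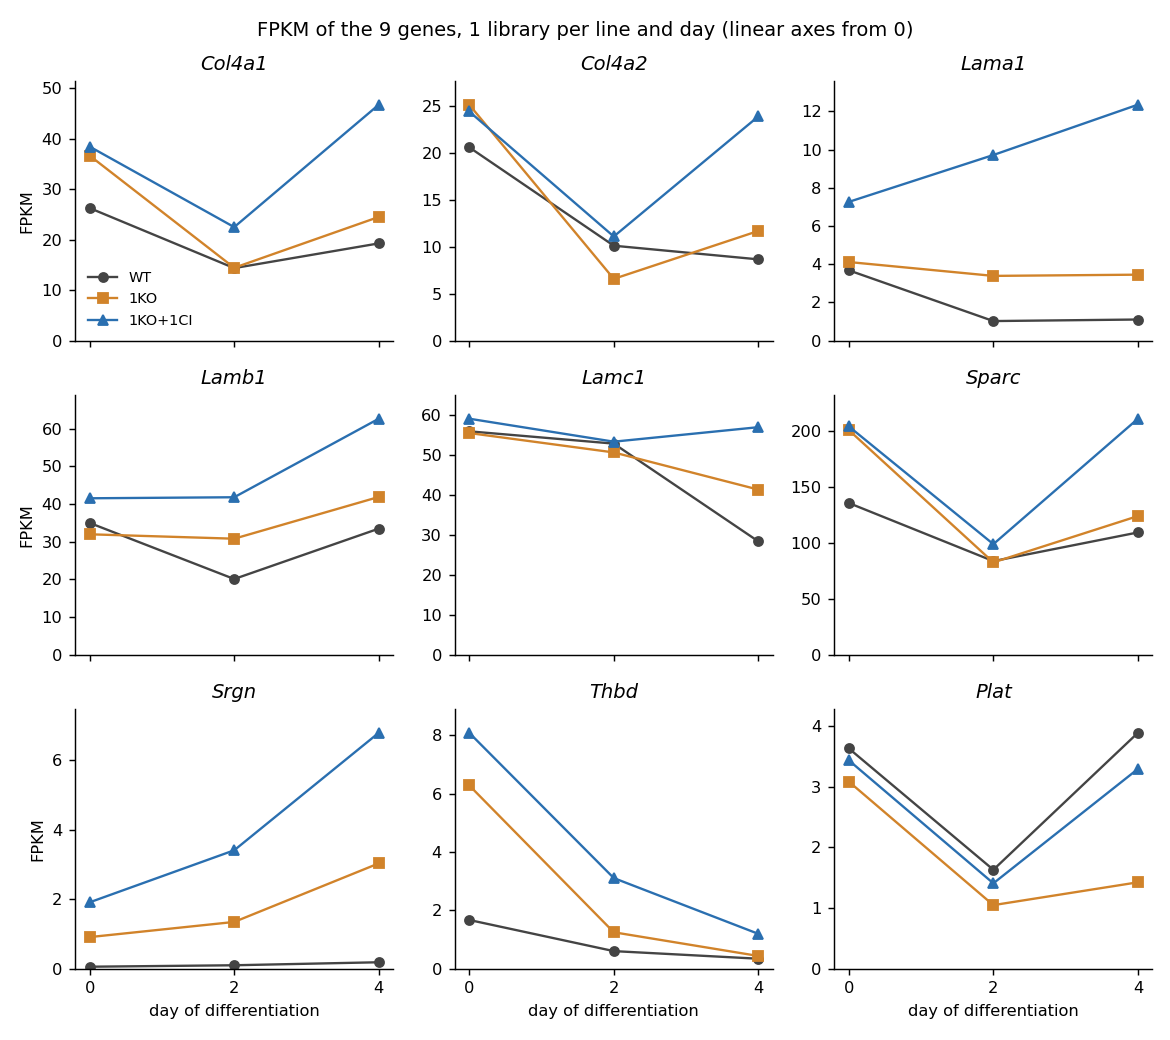
FPKM of the 9 genes (vertical axes, linear from 0, separate for each gene) against day of differentiation, with 1 point per library and lines joining the libraries of WT (circles), 1KO (squares) and 1KO+1CI (triangles). *Lama1* and *Srgn* spread apart between the lines with time, *Thbd* declined in all 3, and *Col4a1*, *Col4a2* and *Sparc* dipped at day 2.

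Markers of feeder fibroblasts also differed between the libraries. Of 22 markers, 20 were in the table, and *Acta2* and *Tagln*, which many other cells express, were left out of the sum. The 18 others summed to 168.6, 29.6 and 34.2 FPKM at days 0, 2 and 4 for WT, to 381, 51.9 and 44.1 for 1KO and to 432, 78.7 and 74.4 for 1KO+1CI cells. At day 0, 7 of the 20 were past 2-fold higher in 1KO than in WT cells and 11 of the 20 in 1KO+1CI than in WT cells, among them *S100a4* (differences of 1.97 and 1.97) and *Col5a2* (1.56 and 1.73). Of all genes, 2.24% and 2.54% were higher in these 2 comparisons. *Col4a1*, *Col4a2*, *Lama1*, *Sparc* and *Thbd*, which fibroblasts can express, also had higher levels in the mutant lines than in WT cells at day 0. The laminin genes *Lamb1* and *Lamc1* did not in 1KO cells. Their 1KO over WT ratios were 0.914 (counting interval 0.877 to 0.952) and 0.992 (0.965 to 1.02). With 1KO+1CI over WT cells these ratios were 1.19 (1.14 to 1.24) and 1.06 (1.03 to 1.09). *Plat* was at 3.63 FPKM for WT, 3.08 for 1KO and 3.43 for 1KO+1CI cells at this day. At day 4, *Acta2*, which encodes a smooth muscle actin, was at 22.3 FPKM with WT, 42.0 with 1KO and 147 with 1KO+1CI cells, and *Tagln*, which encodes the actin-binding protein transgelin, at 171, 177 and 417. With both included, the 20 markers summed to 308, 171 and 227 FPKM at days 0, 2 and 4 for WT, to 570, 147.9 and 263 for 1KO and to 614, 186 and 638 for 1KO+1CI cells, so that the low sum of the 18 at day 4 does not hold for all 20 in 1KO+1CI cells. The part of feeder cells in the results for the 9 genes was not tested. In bulk RNA, more cells of a type and more RNA per cell cannot be told apart.

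*Col4a1* and *Col4a2* encode the collagen IV chains found in nearly all basement membranes. They lie head to head on chromosome 8 (GRCm38, GENCODE M21), *Col4a1* from 11198423 to 11312826 on the minus strand and *Col4a2* from 11312805 to 11449287 on the plus strand. The annotated genes overlap by their first 22 bases. This run is shown because it belongs to both genes, with CG dinucleotides, the sites of DNA methylation, in capitals (RefSeq sequence, GRCm38.p6, plus strand, chr8:11312805-11312826).
Col4a2/Col4a1 shared start: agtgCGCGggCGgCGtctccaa
It holds 4 CG dinucleotides. The 250 bases before the RefSeq start held 31 in *Col4a1* and 26 in *Col4a2*, whereas the median of 32841 promoter windows was 6. All 250 bases of each of these windows lie in annotated exons of the other gene. Antisense genes are annotated over both, and without a stated strand setting their reads cannot be told apart.

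*Col4a1* was at 26.3, 14.4 and 19.3 FPKM at days 0, 2 and 4 for WT, at 36.7, 14.4 and 24.5 for 1KO and at 38.4, 22.5 and 46.7 for 1KO+1CI cells. *Col4a2* was at 20.6, 10.1 and 8.67 for WT, at 25.2, 6.59 and 11.7 for 1KO and at 24.4, 11.1 and 23.9 for 1KO+1CI cells. Both were lower at day 2 than at day 0 in every line, and by day 4 only the 1KO+1CI library had both near or above its day 0 level. Between days 2 and 4 the difference in 1KO+1CI cells was 1.02 for *Col4a1* and 1.04 for *Col4a2*, whereas in WT cells it was 0.40 and −0.20. At day 4 the FPKM of 1KO+1CI over WT cells was 2.43 for *Col4a1* (counting interval 2.32 to 2.54) and 2.76 for *Col4a2* (2.58 to 2.95). Over 1KO cells it was 1.91 (1.83 to 1.99) and 2.04 (1.93 to 2.17), which on the log2(FPKM + 1) scale is 0.90 and 0.97. At day 0 the collagen IV genes hardly separated the mutant lines, with 1KO+1CI minus 1KO differences of 0.07 and −0.04. More *Col4a1* than *Col4a2* was counted in all 9 libraries, and the ratio of their FPKM ran from 1.27 in WT cells at day 0 to 2.22 in WT cells at day 4.

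*Lama1*, *Lamb1* and *Lamc1* encode the alpha 1, beta 1 and gamma 1 chains that together form laminin-111, the laminin of the earliest embryonic basement membranes. *Lama1* (chromosome 17, 67697259 to 67822647) was at 3.68, 1.03 and 1.11 FPKM at days 0, 2 and 4 in WT cells. It was at 4.12, 3.39 and 3.45 in 1KO and at 7.26, 9.71 and 12.3 in 1KO+1CI cells. Day 4 minus day 0 was −1.15 for WT, −0.20 for 1KO and 0.69 for 1KO+1CI cells, so that WT and 1KO+1CI cells differed in sign. WT and 1KO cells started close together, at a ratio of 1.12 (1.02 to 1.23), and stood at 3.30 (2.84 to 3.84) at day 2 and 3.12 (2.68 to 3.64) at day 4. For 1KO+1CI over 1KO cells the ratio was 1.76 (1.63 to 1.91), 2.87 (2.62 to 3.13) and 3.58 (3.29 to 3.89) at the 3 days. On the log2(FPKM + 1) scale *Lama1* alone of the 9 genes was past 2-fold between the mutant lines, at days 2 and 4, but with 0.1 added in place of 1 there were 3 such genes at day 2 and 5 at day 4. Against WT cells the day 4 ratio of 1KO+1CI cells was 11.1 (9.71 to 12.9), from approximately 2364 and 221 reads. The day 4 difference of 1.58 between the mutant lines was above that of 99.9% of all genes.

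*Lamb1* (chromosome 12, 31265234 to 31329644) was at 35.0, 20.1 and 33.5 FPKM for WT, at 32.0, 30.8 and 41.9 for 1KO and at 41.5, 41.8 and 62.7 for 1KO+1CI cells. Day 2 minus day 0 was −0.77 for WT, −0.05 for 1KO and 0.01 for 1KO+1CI cells. *Lamc1* (chromosome 1, 153218922 to 153332786) was at 56.0, 52.9 and 28.4 for WT, at 55.5, 50.7 and 41.4 for 1KO and at 59.1, 53.4 and 57.0 for 1KO+1CI cells. The lines were thus nearly level for *Lamc1* until day 2, and separated at day 4, when WT cells were at their lowest. The day 4 ratio of 1KO+1CI to WT cells was 1.87 (1.80 to 1.95) for *Lamb1* and 2.01 (1.94 to 2.08) for *Lamc1*, of which the latter is a difference of 0.98, just short of 2-fold on the scale used.

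*Lama1* was the scarcest of the 3 chains in every library. *Lamb1* over *Lama1* was 9.50, 19.6 and 30.2 at days 0, 2 and 4 for WT, 7.77, 9.09 and 12.1 for 1KO and 5.72, 4.30 and 5.07 for 1KO+1CI cells. The alpha 5 chain gene *Lama5*, whose product can replace alpha 1 in laminin-511, was more abundant than *Lama1* throughout. *Lama5* over *Lama1* was 25.6 for WT, 12.7 for 1KO and 4.21 for 1KO+1CI cells at day 4. *Lama5* itself stood at 28.3, 43.8 and 52.0 FPKM in the same libraries, so both alpha chain genes were highest in 1KO+1CI cells. *Lamb2* was below *Lamb1* in all 9 libraries, with ratios of 0.0953 to 0.317.

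**Figure D2:**
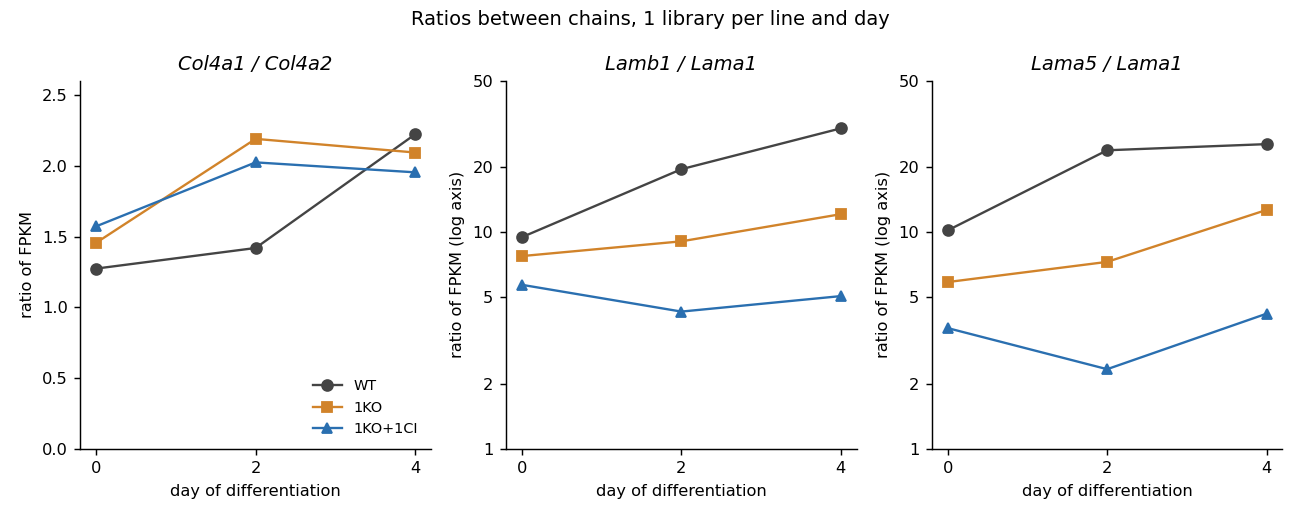
Ratios of FPKM between chains (vertical axes, linear from 0 on the left, logarithmic in the other panels) against day, 1 point per library, in WT (circles), 1KO (squares) and 1KO+1CI cells (triangles). *Lamb1* over *Lama1* reached 30.2 in WT cells at day 4 and stayed between 4.30 and 5.72 in 1KO+1CI cells.

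*Sparc* encodes a collagen-binding matricellular glycoprotein that parietal endoderm makes in abundance. It was the most abundant of the 9 genes in each library, above 94.7% to 98.3% of all genes. It was at 135, 83.5 and 109 FPKM for WT, at 201, 82.4 and 124 for 1KO and at 204, 98.7 and 211 for 1KO+1CI cells. The mutant lines were above WT cells at day 0, with a ratio of 1.02 (0.99 to 1.04) to each other, all 3 lines were close at day 2, and at day 4 only 1KO+1CI cells had returned to their first level. The day 4 ratio of 1KO+1CI cells was 1.93 (1.86 to 2.00) to WT and 1.70 (1.65 to 1.76) to 1KO cells. *Sparc* followed the collagen IV genes, with Pearson's r of 0.97 to *Col4a1* and 0.93 to *Col4a2* in log2(FPKM + 1) over the 9 libraries, whereas *Col4a1* and *Col4a2* had 0.91. These correlations describe 9 libraries that share lines and days.

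*Srgn* encodes serglycin, the core protein of proteoglycans held in secretory granules or secreted. It was the scarcest of the 9 genes in WT cells, at 0.0595, 0.1015 and 0.188 FPKM, which is approximately 1, 3 and 5 reads. In 1KO cells it was at 0.912, 1.35 and 3.04 FPKM (31, 34 and 83 reads) and in 1KO+1CI cells at 1.91, 3.41 and 6.79 FPKM (55, 88 and 166 reads). At every day the lines were ordered WT, 1KO, 1KO+1CI, and in each line the level was highest at day 4. At day 4 the ratio to WT cells was 16.1 (6.36 to 48.8) for 1KO and 36.1 (14.5 to 108) for 1KO+1CI cells, and the interval is wide because of the few WT reads. The ratio of 1KO+1CI to 1KO cells was 2.10 (1.32 to 3.34), 2.53 (1.70 to 3.92) and 2.24 (1.71 to 2.96) at days 0, 2 and 4. These are differences of 0.61, 0.91 and 0.95, none past 2-fold, because adding 1 to such low values shrinks them.

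Since *Srgn* had the greatest ratios between lines, the 250 bases before its upstream start are shown (RefSeq, GRCm38.p6, chr10:62527446-62527695, minus strand, written 5′ to 3′), with CG dinucleotides in capitals. Of this window, 6 bases lie in an annotated *Srgn* exon.
Srgn upstream start: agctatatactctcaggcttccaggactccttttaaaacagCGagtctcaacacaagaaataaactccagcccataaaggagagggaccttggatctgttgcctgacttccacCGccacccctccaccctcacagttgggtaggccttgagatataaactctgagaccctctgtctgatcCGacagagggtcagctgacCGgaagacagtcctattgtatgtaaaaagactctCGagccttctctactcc
The window held 5 CG dinucleotides, close to the median of 6, and the window before a second *Srgn* start, at 62507757, held 3. *Lamb1* held 14 and *Sparc* 4. Of the 250 bases, 174 in the second *Srgn* window, 59 in that of *Lamb1* and 238 in that of *Sparc* lie in annotated exons of the same gene. The letters TATAAA, searched on both strands, occurred in the *Srgn* window shown and in 12.4% of all windows. Of the letters that GATA factors can bind, AGATAA was searched on both strands together with AGATAG, and further with TGATAA as well as with TGATAG, and at least 1 of them occurred in 26.5% of all windows and in 0 of the 6 windows of *Col4a1*, *Col4a2*, *Lamb1*, *Sparc* and *Srgn*. *Lama1*, *Lamc1*, *Thbd* and *Plat* had no entry in the promoter table. Methylation of these windows was not analysed here.

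*Thbd* encodes thrombomodulin, the membrane cofactor with which thrombin activates protein C. The gene has a single exon (chromosome 2, 148404466 to 148408188). It was at 1.67, 0.606 and 0.345 FPKM for WT, at 6.29, 1.25 and 0.439 for 1KO and at 8.09, 3.11 and 1.20 for 1KO+1CI cells. It was thus highest at day 0 and lowest at day 4 in each line, whereas *Srgn* was highest at day 4. Like *Col4a1*, *Lama1*, *Srgn* and 2.86% of all genes, *Thbd* held the order WT, 1KO, 1KO+1CI at each day. The sum of 18 feeder markers held it too. With *Acta2* and *Tagln* included, that sum did not hold it at day 2, at 171 FPKM for WT, 147.9 for 1KO and 186 for 1KO+1CI cells. The part of feeder cells in the *Thbd* values was not tested. The 1KO over WT ratio was 3.76 (3.12 to 4.59) at day 0, 2.07 (1.47 to 2.93) at day 2 and 1.27 (0.755 to 2.18) at day 4, when the counting interval includes 1. The 1KO+1CI over 1KO ratio was 1.29 (1.15 to 1.43), 2.48 (1.95 to 3.15) and 2.73 (1.84 to 4.12), so the mutant lines stood further apart at the later days, although from only 90 and 37 reads at day 4.

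*Plat* encodes tissue plasminogen activator, the secreted protease that turns plasminogen into plasmin. It was at 3.63, 1.63 and 3.89 FPKM for WT, at 3.08, 1.05 and 1.42 for 1KO and at 3.43, 1.41 and 3.29 for 1KO+1CI cells. It was the one gene of the 9 that was lower in 1KO+1CI than in WT cells at each day, though with ratios of 0.946 (0.773 to 1.16), 0.863 (0.629 to 1.17) and 0.847 (0.685 to 1.04), whose counting intervals all include 1. At day 4 the 1KO library stood apart, at 0.366 of the WT level (0.279 to 0.475), a difference of −1.01. The 1KO+1CI library had 2.31 times the FPKM of 1KO cells (1.76 to 3.05). The plasminogen gene *Plg* was not listed in the table.

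Counts over the 9 genes were then set beside those over all genes. In 1KO against WT cells at day 0, 1 of the 9 was past 2-fold higher (*Thbd*) and 0 were lower, where 2.24% of all genes were higher and 1.55% lower. At day 2 there were 2 higher (*Lama1* and *Srgn*) and 0 lower, against 1.6% and 0.663%. At day 4 the same pair was higher and *Plat* was lower, against 1.67% and 0.59%. The median difference of the 9 genes was 0.28, 0.01 and 0.33 at the 3 days. Between the mutant lines, 0 of the 9 were past 2-fold at day 0, where 0.179% of all genes were higher in 1KO+1CI cells and 0.239% lower. *Lama1* alone was past 2-fold higher at day 2 (1 of 9, where 0.153% of all genes were higher and 0.186% lower) and at day 4 (1 of 9, where 0.624% were higher and 0.292% lower). These counts rest on the added 1. With 0.1 added instead, *Srgn* (1.28) and *Thbd* (1.25) were also past 2-fold at day 2, and *Col4a2* (1.03), *Srgn* (1.14), *Thbd* (1.27) and *Plat* (1.15) at day 4. In 1KO against WT cells at day 0 that change added *Srgn* (2.67). All 9 were nonetheless above the 1KO level at days 2 and 4, with medians of 0.61 and 0.82, where the median of all genes was 0.02 and 8.22e-05. In 1KO+1CI against WT cells, 2 of the 9 were higher at day 0 (*Srgn* and *Thbd*), where 2.54% of all genes were higher and 1.97% lower. At day 2 there were 4 (*Lama1*, *Lamb1*, *Srgn* and *Thbd*), against 2.28% higher and 1.26% lower, and at day 4 there were 4 (*Col4a1*, *Col4a2*, *Lama1* and *Srgn*), against 3.01% higher and 1.01% lower. With 0.1 added in place of 1, the day 4 count was 6. None of the 9 was past 2-fold lower in 1KO+1CI than in WT cells at any day. The 3 comparisons share libraries at each day, and the last is the sum of the others, so they are not separate evidence.

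**Figure D3:**
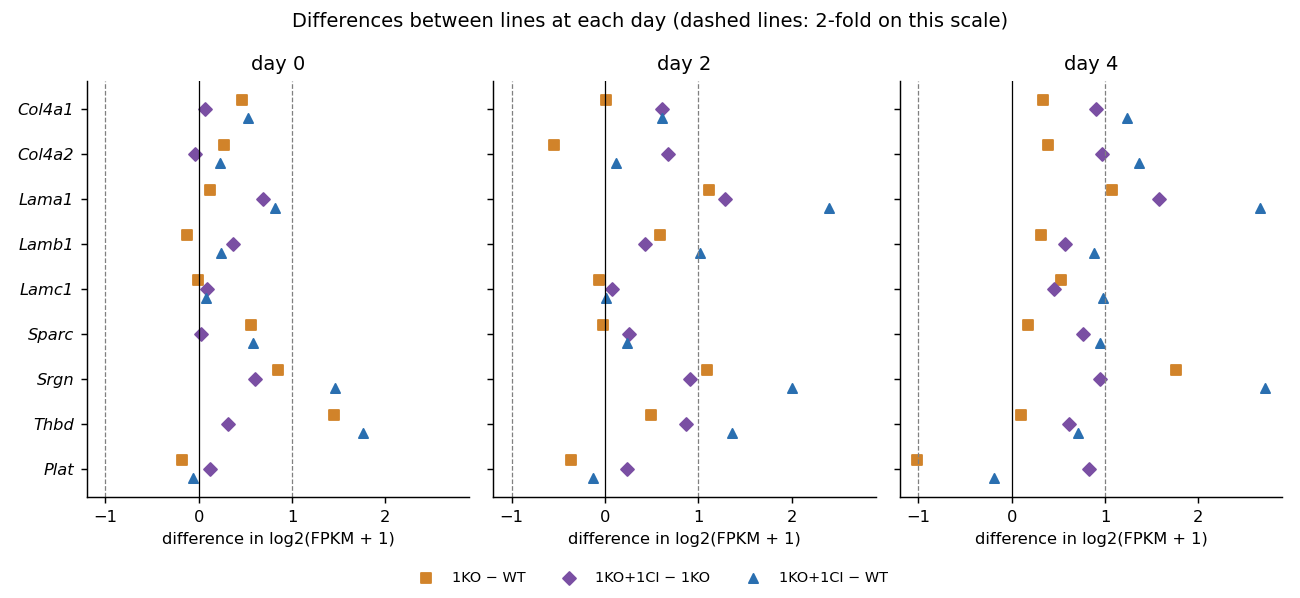
Differences in log2(FPKM + 1) between lines (horizontal axes) for each gene (rows) at days 0, 2 and 4, with 1KO minus WT as squares, 1KO+1CI minus 1KO as diamonds and 1KO+1CI minus WT as triangles, each from 2 libraries, and 2-fold as dashed lines. At day 4 all 9 diamonds lie to the right of 0, from 0.45 for *Lamc1* to 1.58 for *Lama1*.

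Over time, WT cells had 1 gene past 2-fold lower at day 2 than at day 0 (*Lama1*), where 3.87% of all genes were lower and 2.18% higher. With 0.1 added in place of 1 there were 4, since *Col4a2* (−1.02), *Thbd* (−1.33) and *Plat* (−1.11) passed as well. In 1KO cells there were 4 (*Col4a1*, *Col4a2*, *Sparc* and *Thbd*), against 3.32% lower and 1.39% higher, and in 1KO+1CI cells 3 (*Col4a2*, *Sparc* and *Thbd*), against 3.32% lower and 1.81% higher. None of the 9 was past 2-fold higher in this interval. Between days 2 and 4, 3 genes were past 2-fold higher in 1KO+1CI cells (*Col4a1*, *Col4a2* and *Sparc*), against 3.62% higher and 3.1% lower among all genes. The count was 0 for WT cells, against 3.83% higher and 4.29% lower, and 0 for 1KO cells, against 3.89% higher and 3.64% lower. The median day 4 minus day 2 difference of the 9 genes was 0.11 for WT, 0.43 for 1KO and 0.82 for 1KO+1CI cells. From day 0 to day 4, *Col4a2* and *Lama1* were past 2-fold lower in WT cells, where 4.32% of all genes were lower and 1.98% higher. *Col4a2* and *Thbd* were lower and *Srgn* higher in 1KO cells, against 5.13% and 4.17%. *Thbd* was lower and *Srgn* higher in 1KO+1CI cells, against 5.59% and 4.78%. Whether the courses of the lines differ was not tested.

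**Figure D4:**
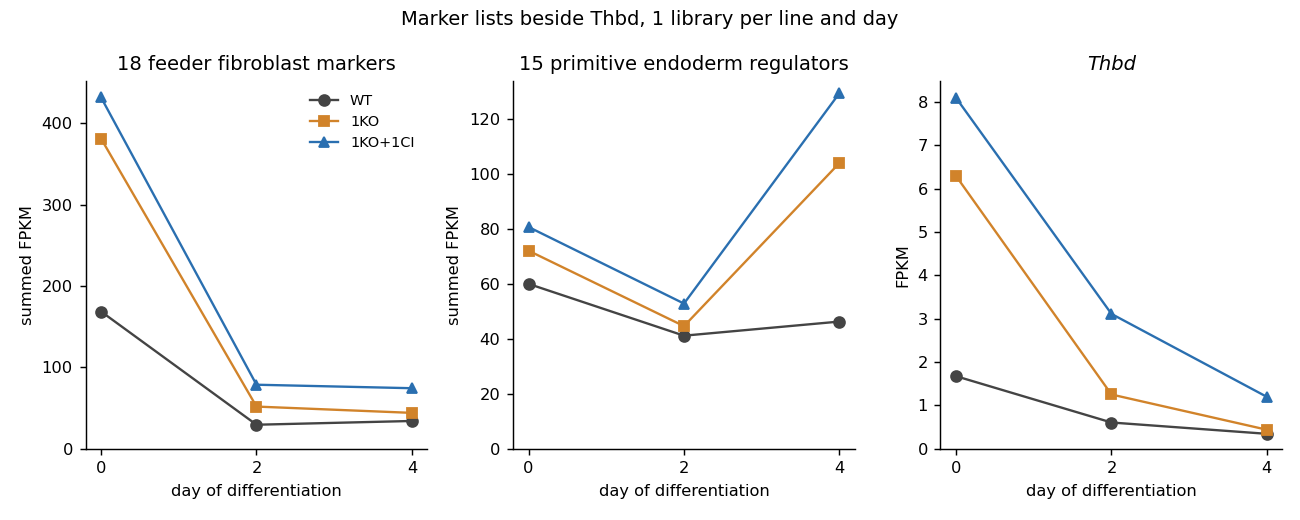
Summed FPKM of 18 feeder fibroblast markers and of 15 PrE regulators, and FPKM of *Thbd* (vertical axes, linear from 0), against day, 1 point per library, in WT (circles), 1KO (squares) and 1KO+1CI cells (triangles). The feeder sum and *Thbd* were both highest at day 0. Both were ordered WT, 1KO, 1KO+1CI at each day, as were *Col4a1*, *Lama1* and *Srgn*. The feeder sum was not in this order at day 2 when *Acta2* and *Tagln* were included. The PrE sum, mostly *Fst* and *Lrp2* at day 4, was highest in 1KO+1CI cells at that day.

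The regulators and endocytic receptors of PrE were then set beside the 9 genes. Of 16, 15 were in the table, and they summed to 46.2 FPKM for WT, 104 for 1KO and 129 for 1KO+1CI cells at day 4. Most of each sum came from *Fst*, at 14.1, 51.1 and 53.0 FPKM, and the endocytic receptor gene *Lrp2*, at 18.8, 25.0 and 34.5. At that day, 8 of 15 were past 2-fold higher in 1KO+1CI than in WT libraries, among them the endocytic receptor gene *Cubn* (difference 1.89), *Fst*, which encodes the activin antagonist follistatin (1.84), and the endocytic adaptor gene *Dab2* (1.42). Of all genes, 3.01% were higher. Between 1KO+1CI and 1KO cells 0 of 15 were past 2-fold, but all 15 were above 0 with a median of 0.44. The median of all genes was 8.22e-05 in this comparison, with 0.624% past 2-fold higher and 0.292% lower. The defining transcription factors were at low levels, with *Gata4* at most at 2.12 FPKM, *Gata6* at 2.35, *Sox17* at 1.63, *Sox7* at 0.985 and *Foxa2* at 2.46 in any library. Several had more FPKM in the mutant lines than in WT cells, but not every factor at every day. *Gata4* was at 1.3055, 1.1515 and 1.563 FPKM at days 0, 2 and 4 for WT and at 0.937, 0.7965 and 0.9595 for 1KO cells. With 1KO+1CI cells *Gata4* was at 1.4975, 1.811 and 2.124. *Foxa2* at day 2 was at 0.233 FPKM for WT, 0.045 for 1KO and 0.394 for 1KO+1CI cells. *Gata6* was at 0.206 FPKM for WT, 1.18 for 1KO and 2.35 for 1KO+1CI cells at day 2 (1KO+1CI minus WT 1.47), *Foxa2* at 0.503, 2.42 and 2.46 at day 4 (1KO minus WT 1.19), and *Sox17* at 0.305, 0.44 and 1.63 at day 4. Markers of primitive streak and mesoderm also differed between these libraries. Of 12, 9 were in the table, and they summed to 21.7 FPKM for WT, 156 for 1KO and 142 for 1KO+1CI cells at day 4. In each mutant line 6 of 9 were then past 2-fold higher than in WT cells, against 1.67% (1KO) and 3.01% (1KO+1CI) of all genes. Among these 6, *Fgf8*, a growth factor gene, was at 8.51, 84.5 and 63.0 FPKM and *Eomes*, a T-box transcription factor gene, at 8.51, 29.9 and 38.5. Between the mutant lines 0 of 9 were past 2-fold at day 4, with a median of −0.000453. The part of such cells in the results for the 9 genes was not tested. Of 15 secreted products of visceral endoderm, 7 were in the table and summed to 6.62 to 15.1 FPKM, and *Afp*, *Ttr* and *Apoa1* were among the 8 that were not listed. Of 8 endothelial markers 7 were in the table, and *Cdh5* was at 0.036 to 0.498 FPKM, whereas *Pecam1*, which ESCs also express, was at 28.6 FPKM in WT cells at day 2. Of 10 blood markers 5 were in the table and summed to 1.61 to 3.31 FPKM, and *Ptprc* and *Csf1r* were not listed. Of 8 trophoblast giant cell markers 4 were in the table and summed to 2.56 to 9.82 FPKM.

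Other genes of the same pathways were counted in the same way, on a day when 3.01% of all genes were past 2-fold higher in 1KO+1CI than in WT libraries and 0.624% in 1KO+1CI than in 1KO libraries. Of 30 other basement membrane components, 27 were in the table, and at day 4 3 were past 2-fold higher in 1KO+1CI than in WT libraries. Among them were *Tinagl1*, a tubulointerstitial nephritis antigen-like matrix protein (12.8 against 1.75 FPKM, difference 2.33), and *Hspg2*, which encodes perlecan (41.9 against 20.2, 1.02). *Tinagl1* was also higher in 1KO+1CI than in 1KO cells, by 1.19. Between 1KO+1CI and 1KO cells 22 of the 27 were above 0, with a median of 0.17, and so were 14 of 19 processing genes (0.21), 15 of 16 receptors (0.30) and 21 of 23 plasminogen and thrombin genes (0.41), beside 9 of the 9 genes (0.82). The median of all genes was 8.22e-05 in this comparison. Differences between these lists were not tested. At day 0 *Nid1*, which encodes the laminin and collagen IV linker nidogen-1, was past 2-fold higher in 1KO (35.9 FPKM) and 1KO+1CI cells (37.2) than in WT cells (15.7). Of the same list, *Frem2* (−1.27) and *Pxdn* (−1.11) were past 2-fold lower in 1KO than in WT cells, and *Pxdn* (−1.05) in 1KO+1CI cells. Of all genes, 2.24% were higher and 1.55% lower in 1KO cells, and 2.54% and 1.97% in 1KO+1CI cells. Among 19 genes of collagen and laminin processing, 1 was past 2-fold higher in 1KO+1CI than in WT libraries at day 4, the collagen chaperone gene *Serpinh1* (137 against 56.7 FPKM, 1.26). Among 16 receptors 2 were, *Itga3*, an integrin alpha chain that binds laminin (56.1 against 19.9, 1.45), and *Bcam*, a laminin receptor (142 against 55.6, 1.34). At day 0 both were lower in 1KO+1CI than in WT cells, *Itga3* at 8.74 against 27.0 FPKM (−1.52) and *Bcam* at 31.2 against 55.7.

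For the proteins around *Thbd* and *Plat*, 23 of 25 genes of the plasminogen and thrombin pathways were in the table. At day 0, 6 were past 2-fold higher in 1KO than in WT cells, among them the metalloproteinase inhibitor *Timp2* (1.68), and 1 was lower, *Mmp9* (−1.46). Of all genes, 2.24% were higher and 1.55% lower. At day 4, 4 were higher in 1KO+1CI than in 1KO cells, among them the urokinase receptor gene *Plaur* (44.2 against 17.5 FPKM, 1.29), *Timp1* (20.02 against 8.58, 1.13) and the tissue factor gene *F3* (12.6 against 5.45, 1.08), and 0 were lower. Of all genes, 0.624% were higher and 0.292% lower. *Plat* itself was 0.82 higher in the same comparison, and *Thbd* 0.61. At day 4, 5 of 23 were past 2-fold higher in 1KO+1CI than in WT libraries (3.01% of all genes), among them *S100a10* (1.69), *Tfpi* (1.68) and *Anxa2* (1.22).

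**Figure D5:**
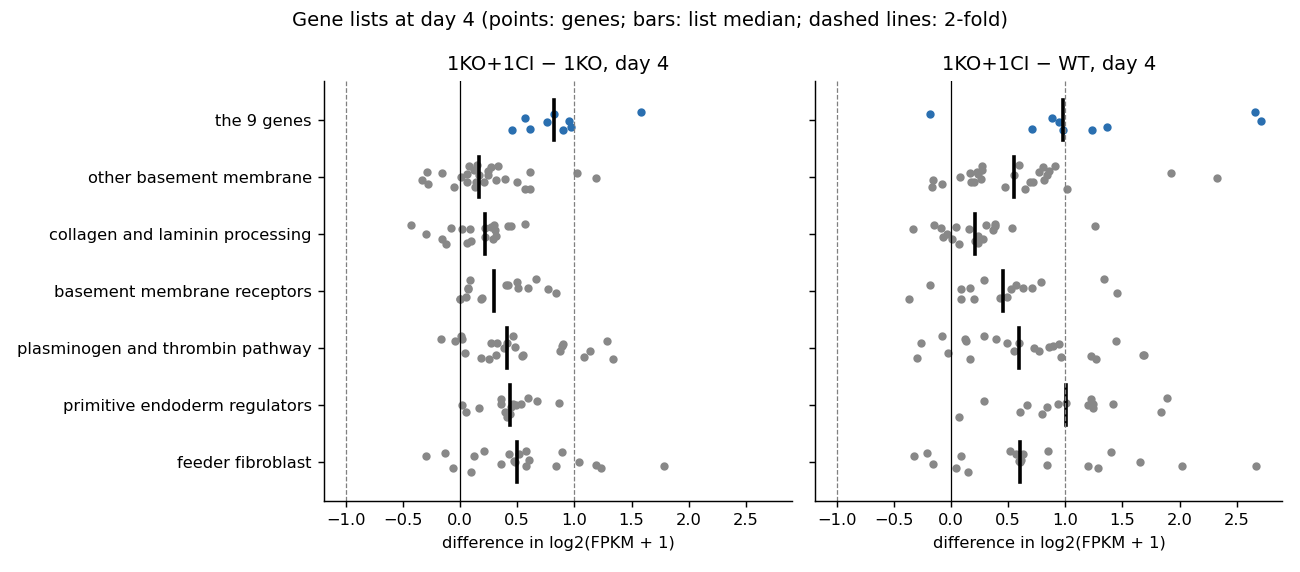
Differences in log2(FPKM + 1) at day 4 (horizontal axes) between 1KO+1CI and 1KO libraries (left) and between 1KO+1CI and WT libraries (right), with 1 point per gene of each list (rows), the list median as a bar and 2-fold as dashed lines. The medians of the 9 genes are 0.82 and 0.98, and those of 27 other basement membrane genes 0.17 and 0.55.

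The genes whose levels over the 9 libraries were most like each of the 9, among 3370 genes with at least 5 FPKM in some library and a range of at least 1, were listed by Pearson's r of log2(FPKM + 1). For *Thbd* they were *Cavin2* (0.99), *Timp2* (0.99) and *Emp1* (0.99), and for *Sparc* they were *Efemp1* (0.97), *Phldb2* (0.97) and *Anxa2* (0.96). *Phldb2* also stood among the 3 nearest to *Col4a1* (0.95), after *Sdc3* (0.97) and *Nbl1* (0.97), and was the nearest to *Col4a2* (0.96), before *Cryab* (0.96) and *Qsox1* (0.95). *Lamb1* was nearest to *Dab2* (0.96), *Lama1* to *Hpcal1* (0.95), *Lamc1* to *Fgfr2* (0.93), *Srgn* to the imprinted gene *Peg3* (0.95) and *Plat* to *Tpm2* (0.95). The laminin chain genes were less alike among themselves than the collagen chain genes, with r of 0.82 for *Lama1* and *Lamb1*, 0.59 for *Lama1* and *Lamc1*, and 0.12 for *Lamb1* and *Lamc1*. *Srgn* had 0.83 with *Lama1* and −0.21 with *Plat*. With 9 libraries that share lines and days, such values describe these libraries alone.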

How the data were processed

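Per the labels and the study's methods, poly(A) RNA of 9 samples was sequenced, and reads passed through Trim Galore, HISAT2 (mm10) and SAMtools before the authors derived FPKM with HOMER. Versions, annotation release, strand setting and the treatment of multiply mapped reads were not given in the sources used here. Deposited values are FPKM per gene, for 15095 entries. The 21 named 0 (1) or by a date (20) were left out, and the table holds no value of 0. The repeat table was not used.

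Differences were computed in log2(FPKM + 1), a pseudocount that shrinks differences of low genes. Approximate reads are FPKM times the harmonic mean length of RefSeq-matched GENCODE M21 transcripts times a depth at which genes with 1 transcript gave the most values near whole reads (65% to 69.5% within 0.15, against 27.3% to 33% after a random shift), so they are estimates. The calls and the depth search were tested on counts simulated from the WT day 0 library, with no spread between cultures.

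All 9 genes are named. Of other lists, genes past 2-fold between lines at 1 FPKM or more are named (at most 5 per list and comparison), with the list's extreme or defining markers, *Lama5* and *Lamb2* (for the chain ratios, chosen after their values were seen), and the 3 genes nearest to each member by correlation. Some genes that this rule would name are not reported here. The members and lists were chosen with earlier results of these data known. Python 3.11.15, numpy 2.4.6, pandas 2.3.3, scipy 1.17.1 and matplotlib 3.10.9 were used.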

Additional observations from a re-analysis of the deposited data

Results flagged for a closer look

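*Lama1* moved in opposite directions with time in WT and 1KO+1CI cells. Day 4 minus day 0 in log2(FPKM + 1) was −1.15 in WT cells (from 3.68 to 1.11 FPKM) and 0.69 in 1KO+1CI cells (from 7.26 to 12.3 FPKM). Each line has 1 library a day, and the difference between the lines was not tested.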

How the results depend on the processing

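Alternatives were pseudocounts of 0.1 and 0.01, rescaling to a common sum, median-ratio scaling, a minimum of 1 FPKM, a fold of 1.5, and the mean in place of the median. No fit with a replicate block was made, as the labels give no replicate numbers. Lines could be blocked by day, but no such fit was run. The minimum of 1 FPKM changed no count, and median-ratio scaling moved no median beyond counting error. For 1KO+1CI minus WT at day 2, median-ratio scaling took the count past 2-fold from 4 to 3. With a pseudocount of 0.1, 2 genes were past 2-fold higher for 1KO minus WT at day 0, and those higher in 1KO+1CI than in 1KO cells were 3 at day 2 and 5 at day 4. The lower genes of WT cells from day 0 to 2 were 4, and from day 2 to 4 there was 1 higher in WT cells, 1 higher and 1 lower in 1KO cells, and 1 lower in 1KO+1CI cells. With 0.01 these counts were 2, 3, 5, 4, 1, 1, 1 and 1, and there was also 1 higher in 1KO+1CI than in 1KO cells at day 0 and 1 higher in WT cells from day 0 to 4. The median of 1KO+1CI minus WT at day 4 was 1.27 (0.1) and 1.28 (0.01), and that of WT cells from day 0 to 2 was −0.87 under both (−0.865 and −0.869). After rescaling to a common sum, *Plat* left the lower genes of 1KO against WT cells at day 4 (0), 2 genes were higher in 1KO+1CI than in 1KO cells at day 4, 1 was lower in WT cells from day 2 to 4, and 4 were lower from day 0 to 4. Medians were then 1.09 for 1KO+1CI minus WT at day 4, −0.51 for WT cells from day 0 to 4 and 0.34 for 1KO cells from day 2 to 4. At a fold of 1.5, the higher genes were 2 for 1KO minus WT at day 0, 2, 5 and 7 for 1KO+1CI minus 1KO at days 0, 2 and 4, and 4 and 8 for 1KO+1CI minus WT at days 0 and 4. Over time, at this fold, WT cells had 7 lower from day 0 to 2, 2 higher and 1 lower from day 2 to 4, and 4 lower from day 0 to 4. In 1KO cells there were 3 higher and 1 lower from day 2 to 4 and 4 lower from day 0 to 4, and in 1KO+1CI cells 1 higher and 5 lower from day 0 to 2, 5 higher and 1 lower from day 2 to 4, and 2 higher from day 0 to 4. The mean was 0.38, 0.26 and 0.41 for 1KO minus WT at days 0, 2 and 4, and 0.63, 0.85 and 1.26 for 1KO+1CI minus WT. For WT cells it was −0.67 from day 0 to 2 and −0.53 from day 0 to 4, for 1KO cells 0.29 from day 2 to 4, and for 1KO+1CI cells −0.45 from day 0 to 2 and 0.093 from day 0 to 4. Under median-ratio scaling the median of 1KO minus WT at day 2 went from 0.00609 to −0.0083. No other median changed sign under these settings.

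Single genes near 2-fold lost the call under 1 scaling each. *Col4a1* in 1KO+1CI cells from day 2 to 4 fell to 0.98, *Sparc* from day 0 to 2 to −0.99 and *Plat* in 1KO against WT cells at day 4 to −0.96 after rescaling to a common sum, and *Lamb1* in 1KO+1CI against WT cells at day 2 to 0.99 under median-ratio scaling. Depth limits *Srgn* in WT cells, *Thbd* at day 4 and *Plat*, and the absent replicates limit every value.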
